A study of Drosophila melanogaster with 34 samples.

Results

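RNA of nuclei pulled from heads by a mushroom body (MB) tag peaked at 15 min of rest after light in a set of 21 genes. These members, of 17559 genes counted, passed a margin, a least level and a filter by name. The members were chosen by measured values. Counts were divided by the total of their library and multiplied to a common total of 1e6, giving CPM, and the mean of log2(CPM + 1) at 15 min had to exceed the highest of the other 4 group means by a margin of at least 0.5. A mean of at least 5 CPM at 15 min was also needed, which 8744 genes had, and genes of heat shock, cuticle, seminal fluid, odorant binding and opsin families, unnamed RNAs and 6 single genes were left out by name. The height at 15 min is therefore given as a description and was not tested. Of the 8744 genes, 1240 (14.2%) had their highest group mean at 15 min, whatever the margin.

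The libraries were made from heads of *Drosophila* in which the *MBp-LexA* driver expressed 2 transgenes in MB neurons, FLAG-KASH, a tag on the outer nuclear membrane used to pull the nuclei out, and CsChrimson, a cation channel opened by red light. Flies were labelled as line CS10 and fed all-trans-retinal, which the channel needs, and each library pooled many flies. The 5 groups of 3 libraries were naïve flies, flies frozen directly after 5 min of light, and flies given the same light followed by 5, 10 or 15 min of rest. Every group, naïve flies included, carried the transgenes, so flies without CsChrimson and flies kept for 15 min without light were not compared here. RNA was fragmented and then collected by its poly(A) tail, so reads come from the 3′ end of each gene. Light was given to the whole animal, and the time of rest cannot be told apart from the day or batch of collection, which the labels do not give.

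Neuronal activity is known to switch on a first wave of genes within minutes, many of them transcription factors, and later genes follow. The head of the fly holds more than neurons. The fat body, an organ of storage and hormone response like liver and adipose tissue, surrounds the brain, and the photoreceptors of the eye are the main light sensitive cells. A pulldown of tagged nuclei is meant to enrich for MB neurons, and it need not remove all RNA of other cells. Enrichment was not measured here, as no RNA library of whole heads was among the samples.

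Markers of several cell types were read in all libraries. The 3 libraries at 15 min included the shallowest of all, with 10392334 to 15924046 counts, against 11987268 to 18809246 counts in the other 12. The 16 genes counted from a list of MB neuron genes, led by *dnc*, summed to 4174 to 4595 CPM at 15 min and to 3822 to 5101 CPM in the other libraries. A list of 26 photoreceptor genes summed to more, 45880 to 53133 CPM at 15 min and 31123 to 39969 CPM in the other libraries, led by the opsin gene *ninaE*. In bulk RNA, more nuclei of a type and more RNA per nucleus cannot be told apart. The lists and the members were both chosen with results of these data known.

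The members were separated from the rest of the time course by modest steps. Their margins over the next highest group ran between 0.51 and 1.05 on the log2 scale, with a median of 0.62, which is 1.54-fold. In 18 of the 21 members all 3 libraries at 15 min lay above all 12 others, beside 1.58% of all 11670 genes tested, and this count follows from the values that chose them. *CheB42c*, *CG4546* and *CG16898*, all under 10 CPM, overlapped with other libraries. The next highest group was naïve flies for 9 members, 10 min of rest for 7, the light group for 3 and 5 min of rest for 2. Means at 15 min ran between 5.44 and 362 CPM with a median of 24.7 CPM, close to the median of 22.5 CPM over all genes tested. The highest of the 3 libraries at 15 min was replicate 1, 2 or 3 for 7 members each.

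**Figure D1:**
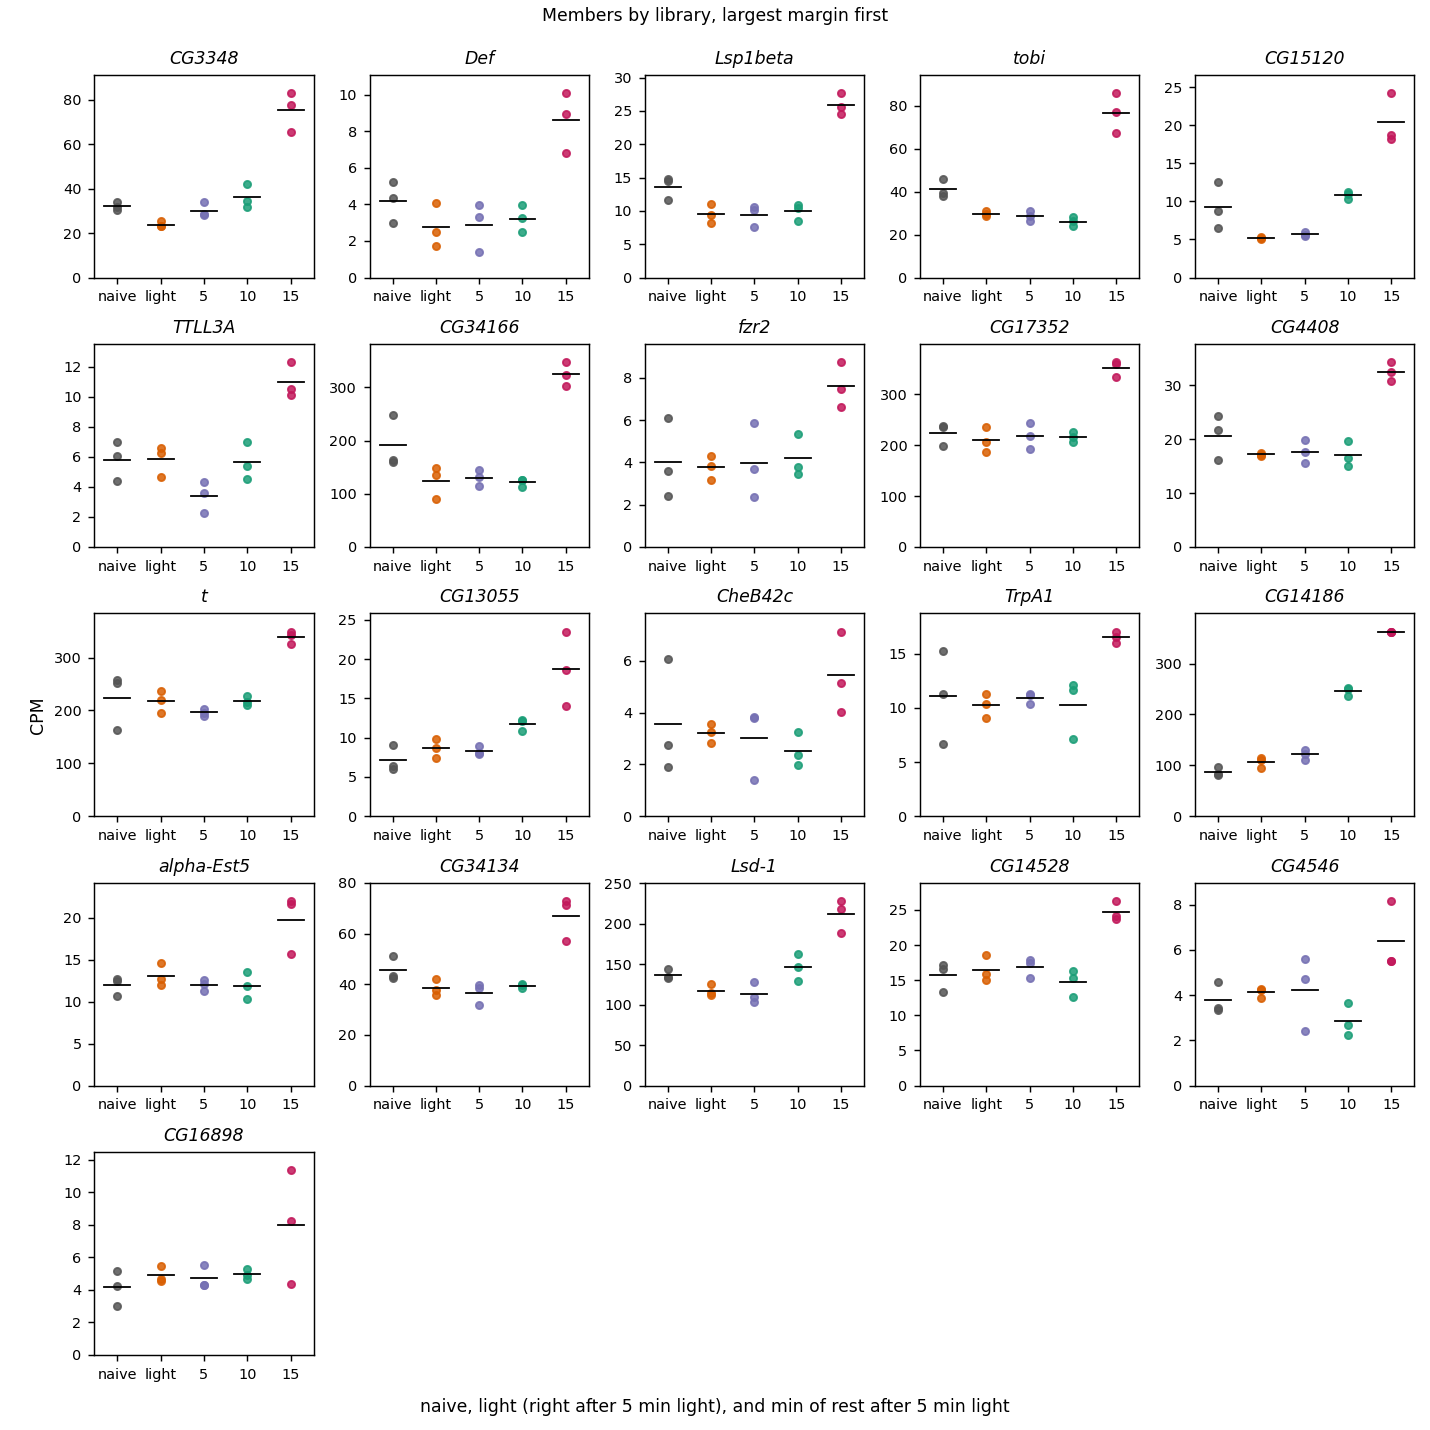
CPM of the 21 members in each of the 15 libraries (points) with group means (lines), in naïve flies, directly after 5 min of light, and after 5, 10 and 15 min of rest; each panel has its own axis from 0. The 15 min points lie above all others in 18 panels, while *CG14186* and *CG13055* are also high at 10 min and *tobi* and *CG34166* are lowest between light and 10 min.

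Of the members with known functions, 3 act in storage and metabolism. *tobi* encodes an enzyme of the alpha-glucosidase family that responds to insulin signals in the fat body, *Lsp1beta* a hexamerin storage protein of the larval blood, and *Lsd-1* a perilipin that coats lipid droplets. *tobi* (chr3R:25344761-25346921, minus strand, dm6) had 45.7, 38.1 and 39.4 CPM in naïve flies, 30.8, 29.3 and 28.8 CPM after light, 26.5, 28.8 and 30.9 CPM at 5 min, 23.8, 28.0 and 26.3 CPM at 10 min, and 77.0, 85.8 and 67.2 CPM at 15 min. Every library between light and 10 min lay below every naïve library, and every library at 15 min above them. The rule used the highest of the other 4 group means, for *tobi* that of naïve flies, but did not set their order. Differences among these 4 groups were therefore tested, although their values had a part in the choice of members. *tobi* fell in all 3 groups against naïve flies, by 0.42 ± 0.12 on the log2 scale after light (SE, adjusted p = 0.0237, edgeR), by 0.42 ± 0.12 at 5 min (adjusted p = 0.0144) and by 0.54 ± 0.12 at 10 min (adjusted p = 0.00108). The call at 10 min held in all 12 alternative fits, with adjusted p between 0.000131 and 0.0124. The calls after light and at 5 min held in 8 of 12 each, and ended without naïve replicate 1, where the adjusted p was 0.110 and 0.0825, and with light replicate 2 or 3 or 5 min replicate 1 or 2 left out, where it lay between 0.0517 and 0.0850, and in fits of only the 6 libraries compared (0.0821 and 0.0571).

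*Lsp1beta* (chr2L:898500-901316, plus strand) had 11.6, 14.8 and 14.4 CPM in naïve flies, 7.60 to 11.01 CPM in the 9 libraries between light and 10 min, and 25.6, 24.5 and 27.7 CPM at 15 min. It had the same outline as *tobi*, with naïve libraries above all 9, but its differences from naïve flies did not pass the test, at -0.47 ± 0.18 after light (adjusted p = 0.111), -0.43 ± 0.18 at 5 min and -0.33 ± 0.18 at 10 min. *Lsd-1* was more abundant and stepped up earlier, with 134, 144 and 133 CPM in naïve flies, 125, 114 and 112 CPM after light, 103, 128 and 110 CPM at 5 min, 147, 129 and 162 CPM at 10 min, and 188, 218 and 228 CPM at 15 min. It rose between 5 and 10 min of rest, to 146 ± 16.5 CPM at 10 min, against 114 ± 13.2 CPM at 5 min (SD, n = 3 each), by 0.39 ± 0.10 on the log2 scale (adjusted p = 0.0339, edgeR). That call ended with library size alone as scaling (0.0648) and without replicates 1 or 3 of either group, where the adjusted p lay between 0.131 and 0.207. *tobi* shares 78 of its 2104 exonic bases with *rha* and *Lsd-1* 144 of its 1960 with *CG10214*, both on the opposite strand, and the strand setting of the counting is not given in the sources used here, so some reads could belong to either gene of a pair.

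The known regulators of fat body genes include GATA factors, and the letters TGATAA, searched on both strands between 250 bases before and 50 bases after the annotated start, were found in 8 of 21 members (38.1%) and in 22.7% of 13968 promoters of protein coding genes. Besides *Lsp1beta* and *tobi*, the members with a match were *TTLL3A*, *CG15120*, *CG16898*, *TrpA1*, *CG14186* and *CG14528*, while *Lsd-1* had none. The start region of *Lsp1beta* and the stretches around the matches of *tobi* and *TrpA1* are shown because they carry these letters. Capitals mark TGATAA or its complement TTATCA, read on the strand of the gene, in sequence of RefSeq Release 6 (dm6).
*Lsp1beta*, chr2L:898440-898509, 60 bases before to 10 after the start: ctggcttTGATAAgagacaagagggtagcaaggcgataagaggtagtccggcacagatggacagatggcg
*tobi*, chr3R:25347067-25347092, match at -161: gggaccccgcTTATCAgacaggttat
*tobi*, chr3R:25347055-25347080, match at -149: atcagacaggTTATCAcggagctgtc
*TrpA1*, chr3L:8905271-8905296, match at -86: ctgacattgcTTATCAggaccgcccc
*tobi* holds 2 such words 12 bases apart. The start region shown for *Lsp1beta* holds 1 at -53, and the rest of its searched window is not shown. A match is a description of letters, and binding of a GATA factor was not measured.

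Other genes of the fat body were high at 15 min as well. The fat body gene *Lsp2* met the values of the rule with a margin of 1.29, and is not a member only because it was left out by name. Of the 13 fat body genes tested, 2 were members, *Lsp1beta* and *Lsd-1*. Of the other 11, 7 rose at 15 min against naïve flies and none fell (edgeR, 1 lower at an unadjusted p under 0.05, none by DESeq2), with a median of 0.57 on the log2 scale, and 8 rose and 1 fell against 10 min, with a median of 0.46. Over all genes tested, 5.41% rose and 4.24% fell at 15 min against naïve flies, and 6.71% rose and 10.2% fell against 10 min. The summed level of the 14 list genes counted that are not members, led by the yolk protein gene *Yp1*, was 13785 to 14290 CPM in naïve flies, 12919 to 14735 CPM after light, 14387 to 14838 CPM at 5 min, 14049 to 14628 CPM at 10 min, and 19470 to 21029 CPM at 15 min. The larval genes *Fbp1*, *Fbp2*, *Lsp1alpha* and *Lsp1gamma* of the same list stayed under 1 CPM on average in naïve flies, at 10 min and at 15 min. The photoreceptor list moved too. It holds no member, but opsin genes were left out by name. *ninaE*, which leads this list, met the values of the rule. Of its 26 genes, 11 rose and 2 fell against naïve flies and 19 rose and 1 fell against 10 min, and its sum was 34787 to 39969 CPM in naïve flies, 36511 to 38635 CPM after light, 31335 to 31503 CPM at 5 min, 31123 to 31625 CPM at 10 min, and 45880 to 53133 CPM at 15 min. The part of these 2 cell types in the height of the members was not tested.

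**Figure D2:**
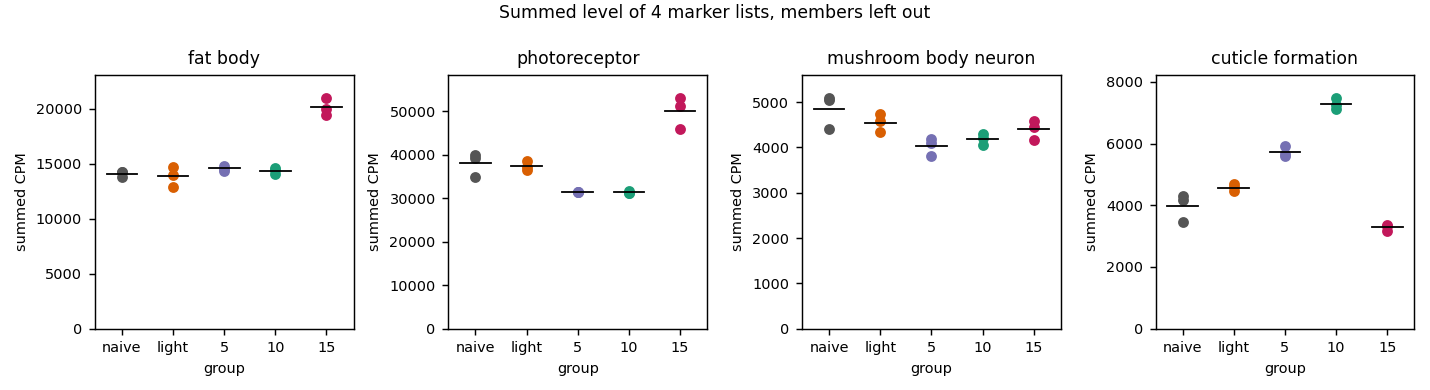
Summed CPM of the fat body, photoreceptor, MB neuron and cuticle formation lists in each library (points) with group means (lines), members left out; axes start at 0. The fat body and photoreceptor sums are highest in the 3 libraries at 15 min (19470 to 21029 and 45880 to 53133 CPM), the MB neuron sum lies between 3822 and 5101 CPM throughout, and the cuticle sum is lowest at 15 min (3149 to 3365 CPM).

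The other lists were counted in the same way. Of 32 cuticle formation genes, none rose and 12 fell at 15 min against naïve flies, and 1 rose and 22 fell against 10 min. Gut and salivary gland genes had the opposite split in the later step, as 0 rose and 2 fell of 9 against naïve flies but 8 rose and none fell against 10 min, with a median of 2.97 on the log2 scale. Their sum was 125 to 139 CPM in naïve flies, 40.4 to 41.4 CPM at 10 min and 103 to 106 CPM at 15 min, so at 15 min it was still below that of naïve flies. Of 8 male reproductive tract genes, 0 rose and 5 fell against naïve flies, and 4 rose and 2 fell against 10 min, with a median of 4.12. The median of the same genes at 10 min against naïve flies was -6.51, so the later rise set out from a low level. *PebIII* made up 97.3% of the summed level of the male reproductive tract list. This sum was 6974 to 7288 CPM at 10 min and 4498 to 5940 CPM at 15 min, so it was lower at 15 min. Counted by genes, more thus rose than fell between 10 and 15 min in the gut and male tract lists too. The same held for the fat body and photoreceptor lists above. Of 16 MB neuron genes, 0 rose and 1 fell against naïve flies and 2 rose and 1 fell against 10 min, and of 11 neuron genes 1 rose against naïve flies and 2 rose against 10 min. In the same 2 comparisons, muscle genes (29) had 0 and 0 higher and 4 and 17 lower, oenocyte genes (6) 0 and 2 higher and 1 and 2 lower, haemocyte genes (10) 0 and 2 higher and 1 and 1 lower, and lens, cone and pigment cell genes (8) 0 and 1 higher and 2 and 2 lower. Glia genes (14) had 3 and 1 higher and 2 and 3 lower, and antenna and sensory organ support genes (9) 0 and 0 higher and 0 and 2 lower. Heat shock and chaperone genes rose in 15 of 15 against naïve flies, while 0 rose and 9 fell against 10 min. Activity-regulated genes that are not members rose in 5 of 10 against naïve flies, and 2 rose and 3 fell against 10 min, and the chromatin proteins studied rose in 1 and 0 of 6. Against naïve flies, in the lists with 0 genes higher by edgeR, 0 to 3 were higher at an unadjusted p under 0.05 and at most 1 by DESeq2, and in those with 0 lower, 0 to 3 were lower at an unadjusted p under 0.05 and none by DESeq2. Against 10 min, lists with 0 higher had 0 to 2 higher at an unadjusted p under 0.05 and none by DESeq2, and lists with 0 lower had none by either.

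2 members act in the eye. *t* (tan, chrX:9217655-9223257, minus strand) encodes the hydrolase that frees histamine from carcinine in photoreceptors and dopamine from its beta-alanyl form in cuticle, and *CG17352*, now called *Culd*, encodes a CUB and LDLa domain protein known for the trafficking of rhodopsin and TRP channels in photoreceptors. *t* had 252, 164 and 257 CPM in naïve flies, 237, 196 and 219 CPM after light, 190, 203 and 196 CPM at 5 min, 227, 211 and 216 CPM at 10 min, and 349, 342 and 326 CPM at 15 min. *CG17352* had 238, 199 and 235 CPM in naïve flies, 188 to 243 CPM in the 9 libraries between light and 10 min, and 360, 363 and 335 CPM at 15 min. Before 15 min neither passed the test in a comparison, although all 3 libraries of *t* at 10 min lay above all 3 at 5 min. Both had small coefficients of variation at 15 min, 3.42% for *t* and 4.36% for *CG17352*. Naïve replicate 2 was the lowest of all libraries for *t*, and without it *t* was 1 of 2 members, with *TrpA1*, that no longer met the margin. The opsin gene *ninaE*, left out by name, met the values of the rule with a margin of 0.52, at 20145 to 23575 CPM at 15 min and 11841 to 16619 CPM in the other libraries.

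2 members rose against naïve flies before 15 min. *CG14186* (chr3L:20098084-20103827, minus strand) is the only member on the list of activity-regulated genes, and *CG13055* (chr3L:16249560-16252355, minus strand) is uncharacterised. The activity-regulated genes *Hr38* and *sr* met the values of the rule with margins of 1.49 and 0.86, and are not members because they were left out by name. *CG14186* had 96.4, 81.2 and 82.2 CPM in naïve flies, 94.8, 110 and 114 CPM after light, 111, 122 and 131 CPM at 5 min, 251, 253 and 236 CPM at 10 min, and 363, 361 and 363 CPM at 15 min. Its group means climbed at every step, and the 3 libraries at 15 min differed by a coefficient of variation of 0.195%, the smallest among the members. It rose against naïve flies by 0.34 ± 0.09 on the log2 scale after light (adjusted p = 0.0184), 0.58 ± 0.09 at 5 min (adjusted p = 3.88e-05) and 1.63 ± 0.09 at 10 min (adjusted p = 6.44e-14), and by 1.05 ± 0.09 between 5 and 10 min (adjusted p = 3.74e-08, edgeR). The last 3 calls held in all 12 alternative fits each. The first held in 8 of 12, and ended in a fit of only the 6 libraries compared (0.122) and without naïve replicate 3 (0.0735), light replicate 2 (0.0713) or light replicate 3 (0.116). The mean at 15 min was 4.18-fold that of naïve flies and 1.47-fold that of 10 min.

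*CG13055* was far less abundant and more variable, with 6.38, 5.99 and 9.01 CPM in naïve flies, 8.72, 7.47 and 9.78 CPM after light, 8.98, 7.88 and 8.03 CPM at 5 min, 12.2, 12.2 and 10.9 CPM at 10 min, and 14.0, 18.6 and 23.5 CPM at 15 min. It rose at 10 min against naïve flies by 0.85 ± 0.21 on the log2 scale (adjusted p = 0.00267), a call that held in all 12 alternative fits (adjusted p 0.00101 to 0.0147). Its difference between 10 and 5 min of rest was 0.52 ± 0.20 and did not pass (adjusted p = 0.225). At 15 min its coefficient of variation was 25.2%, and without replicate 3 of that group it no longer met the margin.

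These 2 genes also carried the strongest sites of CBP, the acetyltransferase encoded by *nej*, among the members. In flies illuminated for 5 min, the authors' MACS fold enrichment was 9.95 at *CG13055*, with the summit 94 bases before the start, and 8.24 at *CG14186*, with the summit 522 bases before it. The stretches below are the start region of *CG13055*, whose capitals mark TATAAA, and 50 bases either side of each summit, whose single capital marks the summit base, all on the strand of the gene.
*CG13055*, start region, chr3L:16252346-16252415: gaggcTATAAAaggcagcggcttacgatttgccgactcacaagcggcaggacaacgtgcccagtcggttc
*CG13055*, CBP summit, chr3L:16252399-16252499: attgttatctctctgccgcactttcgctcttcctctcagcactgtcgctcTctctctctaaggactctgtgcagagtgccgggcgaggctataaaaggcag
*CG14186*, CBP summit, chr3L:20104299-20104399: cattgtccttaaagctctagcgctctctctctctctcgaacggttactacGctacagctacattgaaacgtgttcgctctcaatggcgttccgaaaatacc
Near its end, the window of the *CG13055* summit holds the same TATAAA word that lies 55 bases before the annotated start. Binding in naïve flies was not compared, since the deposited sites come from illuminated replicates.

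*CG3348* (chr3R:27291535-27292209, minus strand) had the largest margin, 1.05. It had 30.4, 34.1 and 31.7 CPM in naïve flies, 25.3, 23.0 and 23.1 CPM after light, 33.9, 28.0 and 28.6 CPM at 5 min, 34.6, 31.6 and 42.0 CPM at 10 min, and 83.1, 77.7 and 65.6 CPM at 15 min. Its light libraries lay below all naïve libraries, yet the difference of -0.38 ± 0.13 did not pass (adjusted p = 0.0637). *CG3348* shares 58 of 561 exonic bases with *Hmu* on the opposite strand, which had 158 CPM at 15 min and 142 CPM in naïve flies.

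*CG34166* (chr2L:14743193-14743879, plus strand) had the same outline as *tobi* at a higher level. It had 160, 248 and 164 CPM in naïve flies, 135, 148 and 89.2 CPM after light, 145, 132 and 114 CPM at 5 min, 126, 112 and 126 CPM at 10 min, and 323, 347 and 304 CPM at 15 min. It fell against naïve flies by 0.58 ± 0.15 on the log2 scale after light (adjusted p = 0.0121), 0.45 ± 0.15 at 5 min (adjusted p = 0.0354) and 0.53 ± 0.15 at 10 min (adjusted p = 0.00761, edgeR). All 3 calls rested on naïve replicate 2, the highest of its group. Without it the differences were -0.34, -0.22 and -0.29, with adjusted p of 0.0870, 0.280 and 0.0904. The call after light also ended without light replicate 3 (0.115) and with DESeq2 (0.0517), and the call at 5 min without replicates 2 or 3 of that group (0.0906 and 0.164) and with DESeq2 (0.129). Fits of only the 6 libraries compared ended both (0.0932 and 0.0942).

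*CG15120* dipped after light and came back by 10 min. It had 8.75, 12.6 and 6.51 CPM in naïve flies, 5.30, 5.18 and 5.10 CPM after light, 5.51, 5.63 and 6.02 CPM at 5 min, 10.9, 10.3 and 11.2 CPM at 10 min, and 24.2, 18.3 and 18.7 CPM at 15 min. It fell after light by 0.80 ± 0.22 against naïve flies (adjusted p = 0.0192) and rose by 0.94 ± 0.21 between 5 and 10 min (adjusted p = 0.0132). The fall lost its call without naïve replicate 2 (-0.52, adjusted p = 0.146), without light replicate 2 (0.0622) or 3 (0.0636) and with only the 6 libraries compared (0.131), and the rise without replicate 1 or 2 at 5 min (0.0566 and 0.0745) or replicate 1 at 10 min (0.0534). Without naïve replicate 2, *CG15120* was also called higher at 10 min than in naïve flies, by 0.62 (adjusted p = 0.0316), against 0.33 ± 0.21 with it (adjusted p = 0.244). *CG15120* shares 78 of 1070 exonic bases with *CG16926* on the other strand.

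*CG34134* had 57.2 to 72.8 CPM at 15 min and 32.0 to 51.1 CPM elsewhere, with its naïve libraries above all 9 libraries between light and 10 min, but with no call. *CG4408* had 30.8 to 34.3 CPM at 15 min and 15.0 to 24.2 CPM elsewhere. *CG14528*, now *Nepl18*, a neprilysin-like gene of the metallopeptidase family, had 23.8 to 26.3 CPM at 15 min and 12.6 to 18.6 CPM elsewhere. *alpha-Est5*, a carboxylesterase gene, had 15.7 to 22.0 CPM at 15 min and 10.3 to 14.6 CPM elsewhere. *TrpA1* encodes a cation channel that opens to warmth and irritants, and had at least 16 CPM in each library at 15 min, against 6.69 to 15.3 CPM elsewhere. None of these 5 genes was called in any of the 4 comparisons of earlier times, so their group means before 15 min were not shown to differ. The TATA word stood in the usual place, 29 bases before the start, only in *CG34134* among those shown, and it stood 54 bases before the start of *CG14528*, whose start region also holds TGATAA at -38. Capitals mark TATAAA.
*CG34134*, start region, chr2L:8190772-8190841: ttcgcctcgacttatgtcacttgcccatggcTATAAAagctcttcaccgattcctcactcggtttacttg
*CG14528*, start region, chr3R:28875561-28875630: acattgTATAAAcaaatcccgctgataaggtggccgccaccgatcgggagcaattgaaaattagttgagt
On the sense strand within 60 bases before the start, TATAAA was in 4 of 21 members (19.0%), *CG16898* being the other, and in 11.8% of 13968 promoters. TGACG, part of the cAMP response element, was in 23.8% of members and 23.8% of promoters between 250 bases before and 50 bases after the start on either strand. TGACGTCA, the whole element, and TGANTCA, the AP-1 word, were in none of the members, against 0.437% and 6.18% of promoters.

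The members of low abundance rest on few reads, between 208 and 437 counts summed over the 3 libraries at 15 min. *Def*, the antimicrobial peptide defensin, had 10.1, 8.93 and 6.84 CPM at 15 min and 1.38 to 5.22 CPM elsewhere. Of the other 27 antimicrobial and stress-induced genes tested, none rose and 3 fell at 15 min against naïve flies, and 1 rose and 8 fell against 10 min. *TTLL3A*, a tubulin glycylase gene, had 10.1, 10.6 and 12.3 CPM at 15 min and 2.25 to 7.02 CPM elsewhere. *fzr2*, a relative of the activators of the anaphase promoting complex, had 6.64, 7.46 and 8.73 CPM at 15 min and 2.37 to 6.09 CPM elsewhere. These 3 genes did not overlap with other libraries, by a step of less than 1 CPM between the lowest library at 15 min and the highest elsewhere for *fzr2*. *CheB42c*, of a family made in taste hairs, had 7.12, 4.04 and 5.15 CPM at 15 min, against up to 6.06 CPM in naïve replicate 2, and 961 of its 1649 exonic bases (58.3%) are also exons of *mim* on the same strand, so its counts are uncertain. *CG4546* had 5.48, 8.16 and 5.53 CPM at 15 min and up to 5.57 CPM elsewhere. *CG16898* had 4.33, 11.3 and 8.23 CPM at 15 min and up to 5.51 CPM elsewhere, and its coefficient of variation of 44.1% was the largest of all members.

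Before 15 min, 6 members were called in at least 1 of the 4 comparisons, beside 32.1% of all genes tested. In 11 members at least 1 of these comparisons was without overlap between the groups, beside 61.7%. After light, 1 member was higher than in naïve flies and 3 were lower, beside 4.88% and 3.45% of all genes tested. At 5 min, 1 was higher and 2 lower, beside 8.75% and 6.02%. At 10 min, 2 were higher and 2 lower, beside 14.5% and 13.9%. Between 5 and 10 min of rest, 3 members rose and none fell, beside 1.69% and 0.206%. The members called are those given above: *CG14186* in all 4 comparisons, *tobi* and *CG34166* lower in the 3 against naïve flies, *CG15120* lower after light and higher between 5 and 10 min, *CG13055* higher at 10 min and *Lsd-1* higher between 5 and 10 min. Each comparison had 6 members with an unadjusted p under 0.05 in edgeR, none of them lower between 5 and 10 min, where DESeq2 also called 0 lower. Medians over the members were -0.06 after light, -0.09 at 5 min and 0.07 at 10 min against naïve flies on the log2 scale, beside -0.01, -0.02 and -0.05 over all genes tested. The 3 comparisons share the naïve libraries. In 10 members the mean was below that of naïve flies in all 3 groups, and in 14 the 4 group means other than that at 15 min lay within 0.5 of each other.

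**Figure D3:**
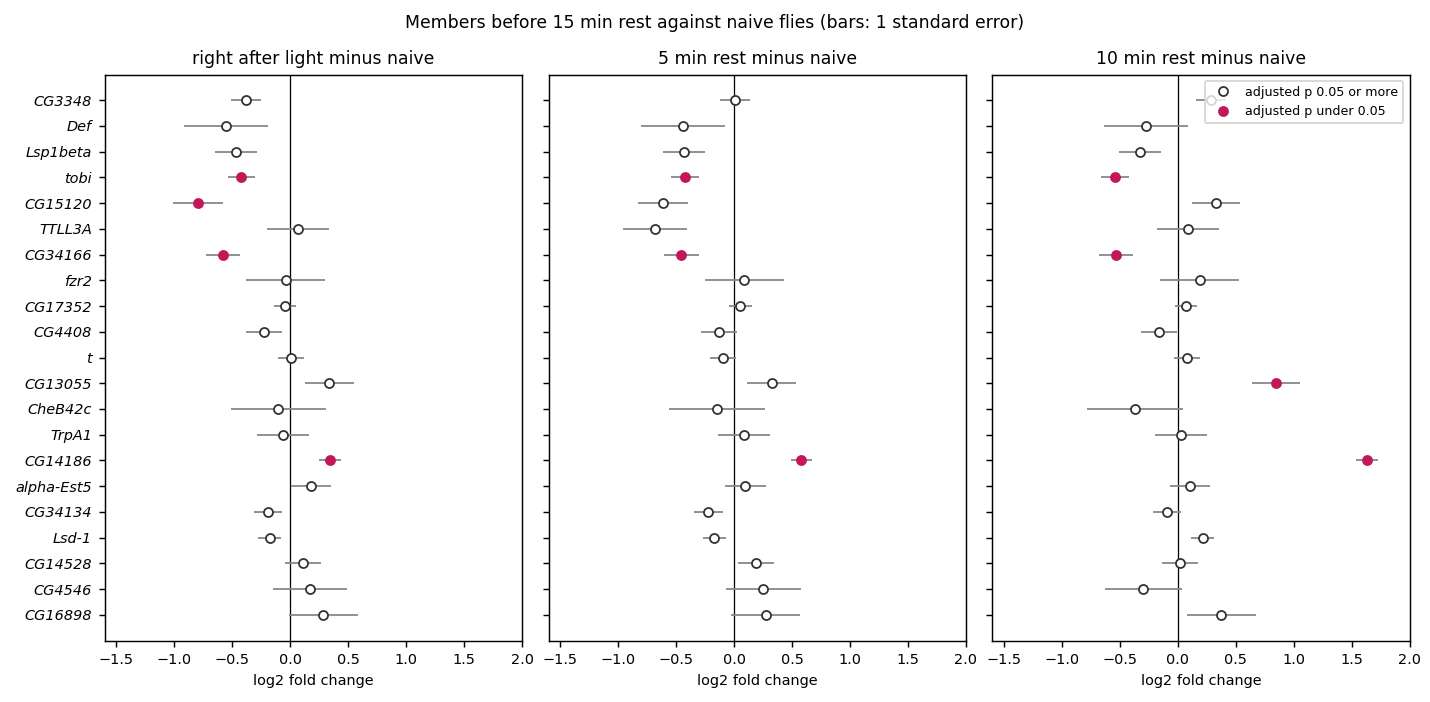
Log2 fold changes of the 21 members with standard errors (bars), directly after light, at 5 min and at 10 min of rest, each minus naïve flies; filled points passed an adjusted p of 0.05. *CG14186* lies right of 0 in all panels, at 1.63 in the last, and *tobi* and *CG34166* lie left of it in all. Bars of the other members overlap 0 in some cases and lie clear of it in others, also for points that did not pass.

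The set depends on the scaling at its edge. With TMM library sizes 29 genes met the rule, 20 of the 21 members without *CG16898* and 9 other genes. With DESeq2 size factors 31 did, 19 members without *CG16898* and *Lsd-1* and 12 other genes. Leaving out 1 library kept 17 to 21 of the members, with the fewest kept without replicate 2 or 3 at 15 min. The values of a 15 min library that had no part in the choice could be read directly, although the other 4 group means it is set against are values that chose the genes. When genes were chosen without replicate 1, 2 or 3 at 15 min, 35, 23 and 26 genes met the rule, and the library left out lay above the highest other group mean in 34, 22 and 25 of them, beside 16.6%, 20.1% and 19.6% of all genes with at least 5 CPM in the libraries kept at 15 min. It lay above by the margin of 0.5 in 13, 16 and 14, beside 0.549%, 0.801% and 0.605%, with median differences of 0.41, 0.64 and 0.54. Just inside the margin stood *CG16898* (0.51), *CG4546* (0.51) and *CG14528* (0.53), and just outside it *CG11334* (0.496), *CG30414* (0.495) and *CG16758* (0.495).

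**Figure D4:**
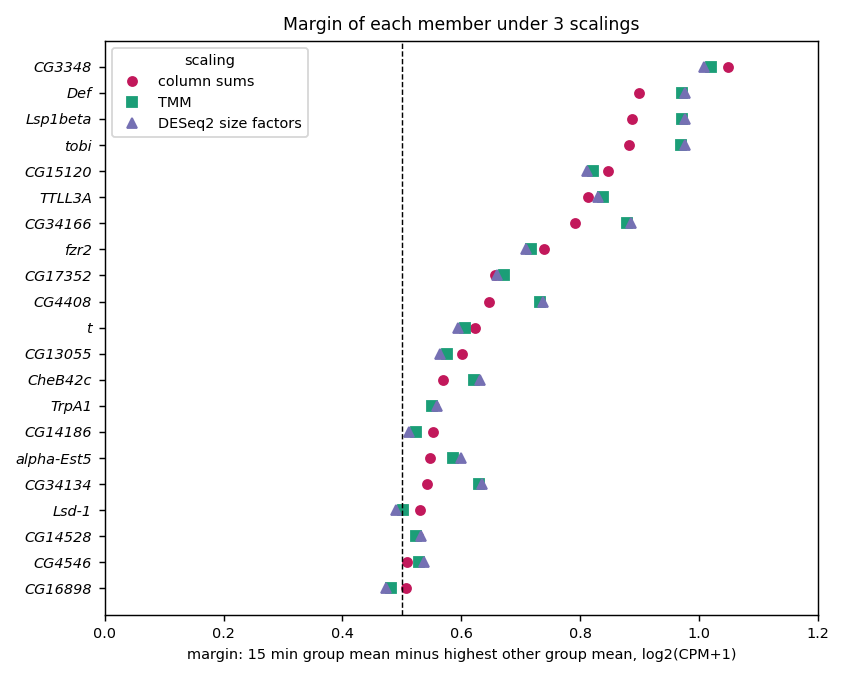
Margin of each member, the 15 min group mean minus the highest other group mean of log2(CPM + 1), with counts scaled by column sums, TMM or DESeq2 size factors; the dashed line is the margin of 0.5 that the rule needs. *CG3348* leads at 1.05 with column sums, and *Lsd-1* and *CG16898* lie at or below the line with the other scalings.

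Besides *ninaE*, 4 genes left out by name met the values of the rule. *Lsp2*, another hexamerin of the fat body, had a margin of 1.29, at 215 to 222 CPM at 15 min and 34.2 to 99.1 CPM elsewhere. *CR11538*, annotated as an RNA, had a margin of 1.202. The transcription factor genes *Hr38* and *sr*, which are activated by neuronal activity, had margins of 1.49 and 0.86. *Hr38* had 29.5, 35.0 and 41.3 CPM at 15 min and 7.39 to 13.8 CPM elsewhere, and *sr* had 31.4 to 33.7 CPM at 15 min and 10.9 to 18.7 CPM elsewhere.

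Sites of the proteins studied were sparse at the members. They had been mapped by ChIP-seq in MB nuclei of flies with FLAG-KASH and CsChrimson, with CoRest-C tagged by myc and driven by *MBsw*. A CBP site lay over the gene or within 1 kb before it in 5 of 21 members (23.8%, exact 95% interval 8.22% to 47.2%, counting error only), against 43.3% of 11459 tested genes with a position. They were *CG13055*, *CG14186*, *CG3348*, *alpha-Est5* and *CheB42c*, the last inside *mim*, with fold enrichments of 3.38 to 9.95. An Rpd3 site lay near *CG15120* alone (4.76%, against 34.2%), inside another gene, and a CoRest-C site near none of the members (0 of 21, exact upper bound 16.1%, against 13.2%). With no site of any of the 3 proteins, 15 members (71.4%) stood beside 44.7% of tested genes. No test was made of these shares, and the deposited sites have no replicate spread.

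By the annotation all 21 members are protein coding. Their median gene length was 2621 bases, against 2452 bases for tested genes, and their median number of exons was 2, against 4. A single exon was annotated for 6 members. They were spread over the arms 2L (4), 2R (5), 3L (4) and 3R (7) and the X chromosome (1), and the closest pair, *CG4408* and *Lsd-1*, lay 400283 bases apart, so no members were neighbours. Names made of a CG number alone stood for 11 members (52.4%), against 44.1% of tested genes.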

How the data were processed

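Nuclear RNA of 15 libraries was counted. The authors mapped reads to dm6 with STAR and deposited whole-number read counts per gene from HTSeq, without normalization. Binding sites are peaks of at least 2 of 3 illuminated replicates, and for each of them the authors deposited a p-value as its −log10 and an enrichment ratio (fold), both as MACS gave them. A table of the authors' own p-values and log2 fold changes was not used.

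The members, lists, tests and alternatives were chosen with earlier results of these data known. Members were selected on column-sum CPM. Tests before 15 min used edgeR 4.0.16 (R 4.3.3, limma 3.58.1) quasi-likelihood fits of all 15 libraries with TMM scaling and its default filter by group, which kept 11670 of 15634 genes with a count, and Benjamini-Hochberg adjustment over these, with adjusted p under 0.05 called. DESeq2 1.42.0 was an alternative. The common coefficient of variation between replicates was 13.4%. P-values measure the spread between these samples, which the labels do not describe as separate cultures and which may be technical. The tests and overlaps were tested on simulated data.

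Genes were named by margin (12 largest), abundance (12 highest), list membership, smallest adjusted p at 10 min against naïve flies, closeness to the margin and replicate spread (3 highest and 3 lowest). Positions came from Ensembl BDGP6.54 and sequences from RefSeq Release 6, both dm6.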

Additional observations from a re-analysis of the deposited data

Results flagged for a closer look

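The difference from naïve flies itself differed between 5 and 10 min of rest for 3 members, tested as the direct comparison of 10 min with 5 min in edgeR. *CG14186* differed by 1.05 on the log2 scale, with all 3 libraries at 10 min above all 3 at 5 min. *CG15120* differed by 0.94, also without overlap. *Lsd-1* differed by 0.39 without overlap, and this is the smallest and least stable of the 3, as its adjusted p was between 0.00427 and 0.207 over the 12 alternatives.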

How the results depend on the processing

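A margin of 1 left 1 member, and leaving out 1 library gave 20 to 35 genes by the rule, 35 without 15 min replicate 1. After light, 1 higher and 3 lower members became 0 and 0 with only the 6 libraries compared or an adjusted p under 0.01, 0 and 1 with a fold change of at least 1.5, and 0 to 1 and 0 to 3 with 1 library left out. At 5 min, the 2 lower became 1 with DESeq2, 5 with library size alone, 0 with only the 6 libraries, under 0.01 or with a 1.5-fold change, and 0 to 3 with 1 library left out, and the 1 higher became 0 with a 1.5-fold change. At 10 min, the 2 lower became 0 with a 1.5-fold change and 1 to 2 with 1 library left out. Between 5 and 10 min, the 3 higher became 1 under 0.01 and 1 to 3 with 1 library left out. The Rpd3 site of *CG15120* was lost (0) over the gene alone and above the median score, and with sites above the median score 2 members had a CBP site, 9.52% against 24.8% of tested genes. The counts of fat body and photoreceptor genes were recomputed after seeing the data and stayed within 1.5 times. Changes of sign at 10 min against naïve flies, all uncalled, came with library size alone for *TTLL3A* (-0.037), *CG17352* (-0.049), *t* (-0.040), *TrpA1* (-0.10), *alpha-Est5* (-0.014) and *CG14528* (-0.10), and with 1 library left out for *TTLL3A* (-0.11 to 0.23), *fzr2* (-0.069 to 0.59), *CG17352* (-0.0023 to 0.11), *t* (-0.10 to 0.19), *CheB42c* (-0.69 to 0.26), *TrpA1* (-0.23 to 0.31), *CG34134* (-0.14 to 0.0011) and *CG14528* (-0.084 to 0.12). Fewer libraries or a stricter threshold lower counts by construction, and the other causes were not tested.

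Samples share replicate numbers by name only, with correlations of -0.10 to 0.03 between same-numbered libraries. With the replicate number as a block, the same members were called in all 4 comparisons, for example 2 higher and 2 lower at 10 min. The median of all genes at 15 min against naïve flies was -0.11 with column sums and -0.03 with TMM.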
